A study of Mus musculus with 8 samples.

Results

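Cytokine receptor chains of lymphoid cells were examined on arrays of DN3 thymocytes from wild-type and Ikaros-deficient mice, with and without a block of Notch signalling. The chains were those of the genes Il7r, Il2rb, Il2rg, Il4ra, Il6st, Il21r, Il18r1 and Ifngr1, and their probe sets were taken by gene symbol from the platform annotation. That gave 14 of the 45101 probe sets, for 7 of the 8 genes, among 18193 genes tested. No probe set was listed under Il2rg, which encodes the common gamma chain, and that gene was not analysed here. The 14 probe sets were 4 of Il6st, 3 of Il4ra, 2 of Il7r, 2 of Il2rb and 1 each of Il21r, Il18r1 and Ifngr1. All 7 genes entered the test, as no filter on low values was used.

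A cytokine receptor is built from chains that bind the cytokine and chains that carry the signal. Il7r (for interleukin-7), Il2rb (for interleukins 2 and 15), Il4ra and Il21r encode chains that pair with the common gamma chain. The chain gp130 (Il6st) serves the interleukin-6 family, and IFNGR1 binds interferon gamma. All of these receptors signal through JAK kinases, which phosphorylate STAT factors. The interleukin-18 receptor (Il18r1) instead uses MyD88 and NF-kappaB. Interleukin-7 is a survival and growth signal for early thymocytes, and precursors in the thymus depend on its receptor together with Notch.

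The arrays came in 4 groups of 2. Lineage-negative thymocytes of wild-type (WT) or Ikaros-deficient (IkL/L) mice were grown on OP9 DL1, a bone marrow stromal line that displays a Notch ligand, and treated for 16 h with DMSO, the vehicle, or with the gamma-secretase inhibitor (GSI) MRK-003, labelled as 5 mM. Gamma-secretase releases the active part of Notch from the membrane. DN3 cells, which are lineage-negative, CD44-negative and CD25-positive, were then sorted, so all 4 groups passed through the same stromal culture and the same gate. CD25 is itself a cytokine receptor chain, encoded by Il2ra, whose level fell with GSI (given below). Whether the gate took the same kinds of cells from the DMSO and the GSI cultures was not tested. The labels do not say how Ikaros was altered, how many mice were used, or whether replicates came from separate mice or cultures. The p-values therefore cover the spread among these arrays alone, and that spread may be technical.

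Values are log2 levels after RMA, an array summary that includes normalization, and 1 unit is a 2-fold difference. Array medians lay between 5.25 and 5.33, and replicates correlated with r between 0.975 and 0.993. The mean of 14 genes of the DN3 stage and T lineage was 10.8 to 11.2 on the 8 arrays. Bcl11b (12.77 to 13.46) and Cd3g (12.21 to 12.91) were high throughout, but not all of the 14 were steady. With GSI on average 1 of the 14 rose and 3 fell (limma), where 12.5% of all genes were called lower. Ptcra went from at least 10.7 on every DMSO array to at most 9.46 on every GSI array. The mean of 15 natural killer and innate lymphoid markers ranged from 5.30 to 5.79. Among them Ncr1 (3.34 to 3.61) and Klrd1 (2.96 to 3.53) lay near the bottom of the scale, while Gzma (12.53 to 13.18), Nkg7 (6.24 to 9.13) and Id2 (6.69 to 9.11) did not. On average 3 of the 15, Nkg7, Rora and Tyrobp, rose with GSI (limma, adjusted p = 0.0077, 0.00021 and 0.032), where 10.8% of all genes were called higher. The mean of 20 stromal markers was higher on the array numbered 1 than on the array numbered 2 in each group, and ranged from 6.39 to 7.98. Under DMSO the level of Ikzf1, which encodes Ikaros, fell below WT in the IkL/L cells, with a log2 difference of -0.90 ± 0.14 (SE; limma, adjusted p = 0.022). It was 11.95 and 12.17 in WT and 11.14 and 11.19 in IkL/L. That call was lost when any of the 4 DMSO arrays was left out, with every probe set as a feature, and with the mean over the probe sets of a gene. The labels do not show whether the probe set covers the changed stretch of Ikzf1.

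Ifngr1 and Il6st were the chains called higher with GSI on average, Il6st only by its probe set with the highest mean. Il7r had the largest difference between the genotypes, which did not pass. The promoter stretches of these 3 genes are shown first. They are RefSeq sequences of build GRCm38.p6, 5′ to 3′ on the strand of the gene. The first 3 end at the base before the annotated gene, and the last lies inside the annotated Il7r gene, upstream of the start site that the promoter table uses. Capitals would mark TGGGAA, the core shared by binding sites of Ikaros and of the Notch partner RBPJ, GTAAACA, a forkhead (FOXO) site, or GGAAGT, an ETS core, on either strand. The ETS core was added after the data were seen.
Ifngr1, chr10:19591699-19591948, plus strand: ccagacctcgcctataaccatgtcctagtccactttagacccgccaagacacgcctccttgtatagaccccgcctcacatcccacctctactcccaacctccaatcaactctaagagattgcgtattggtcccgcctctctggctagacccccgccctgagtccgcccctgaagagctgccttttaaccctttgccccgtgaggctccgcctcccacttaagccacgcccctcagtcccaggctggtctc
Il6st, chr13:112463820-112464069, plus strand: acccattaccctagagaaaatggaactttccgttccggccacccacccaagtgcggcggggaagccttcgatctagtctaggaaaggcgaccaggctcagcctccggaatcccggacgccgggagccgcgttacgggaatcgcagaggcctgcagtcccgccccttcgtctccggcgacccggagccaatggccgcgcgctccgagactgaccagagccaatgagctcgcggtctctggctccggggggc
Il7r, chr15:9529942-9530126, minus strand: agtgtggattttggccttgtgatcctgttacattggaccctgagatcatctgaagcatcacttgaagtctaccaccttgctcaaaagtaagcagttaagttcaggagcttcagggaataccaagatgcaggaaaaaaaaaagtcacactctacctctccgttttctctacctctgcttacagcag
Il7r, chr15:9529908-9529937, minus strand: ccttttgctcagACTTCCtgtttctggcac

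In the table's windows, from 250 bases before to 50 after a start site, Ifngr1, Il6st and Il4ra held none of these motifs. Il7r held the ETS core once, on the reverse strand, from position -49 relative to the start site, as capitalised in the last sequence. Il21r held the forkhead motif from position -38, and each of 3 Il18r1 windows held TGGGAA. In the first 2 of these, which overlap each other, the letters also overlap an ETS core. Of all 32851 such windows, 25.6% held TGGGAA, 3.65% GTAAACA and 23.8% GGAAGT. A match is a description of letters, and its absence says only that these letters are not in this window.

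The first comparison was the GSI response averaged over WT and IkL/L. Ifngr1 rose 2.11-fold and Il6st 1.33-fold, while the other 5 chains did not pass. These 2 of 7 genes stand against 23.3% of all genes called in this comparison (limma, adjusted p below 0.05) and 10.8% called higher, and with 7 genes a count of 2 is near that background. The median log2 difference of the 7 was 0.14, against -0.002 over all genes. The Il6st call rested on its probe set with the highest mean, and its other probe sets had average log2 differences of -0.001, -0.10 and -0.16. Il2ra, which was not one of the chains chosen, fell from 12.03 and 11.90 to 9.73 and 9.47 in WT and from 11.69 and 11.57 to 9.49 and 9.42 in IkL/L, a log2 difference of -2.27 ± 0.11 (SE; adjusted p = 7.2e-05).

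**Figure D1:**
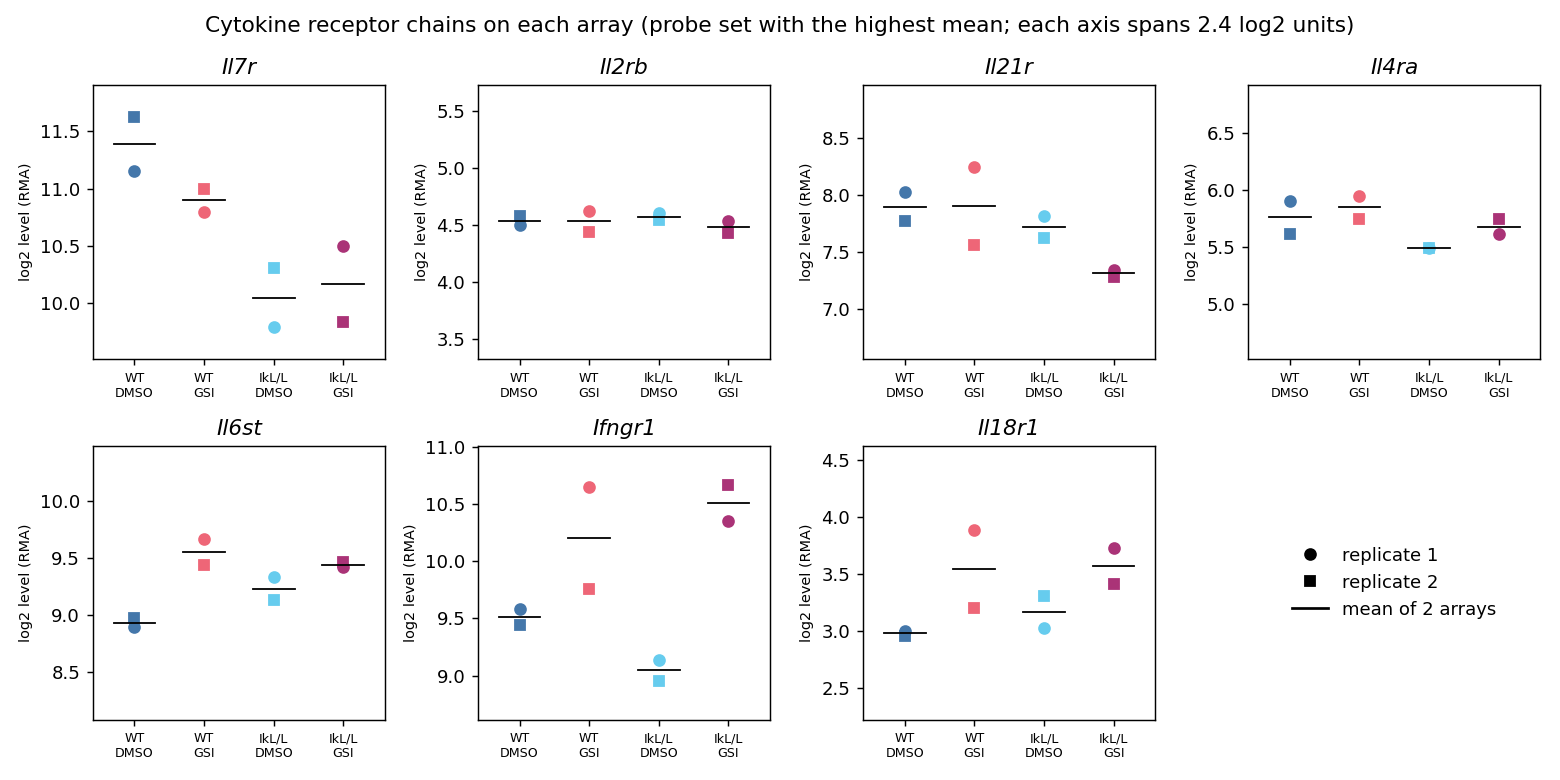
Log2 level (y axis) of the 7 receptor chain genes in the 4 groups (x axis), with circles for replicate 1, squares for replicate 2 and a line at the mean of 2 arrays. Each panel spans the same number of log2 units; Ifngr1 lies higher under GSI than under DMSO in both genotypes, Il7r lies lower in IkL/L than in WT, and Il2rb hardly moves.

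In WT cells none of the 7 chains passed for GSI against DMSO, where 6.47% of all genes did. At an unadjusted p below 0.05 there were 3 (Il6st, Il18r1 and Ifngr1), against 21.1% of all genes. In IkL/L cells 1 of the 7 passed, Ifngr1, against 16.8% of all genes called either way and 7.70% called higher. The difference of the 2 responses passed for none of the 7, with none at an unadjusted p below 0.05, where 0.0440% of all genes passed and 5.99% had an unadjusted p below 0.05. Without overlap between the arrays, 3 of the 7 (Il6st, Ifngr1 and Il18r1) lay higher under GSI than under DMSO in both genotypes, as did 13.7% of all genes. None of the 7 lay lower in that way, against 15.6% of all genes.

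**Figure D2:**
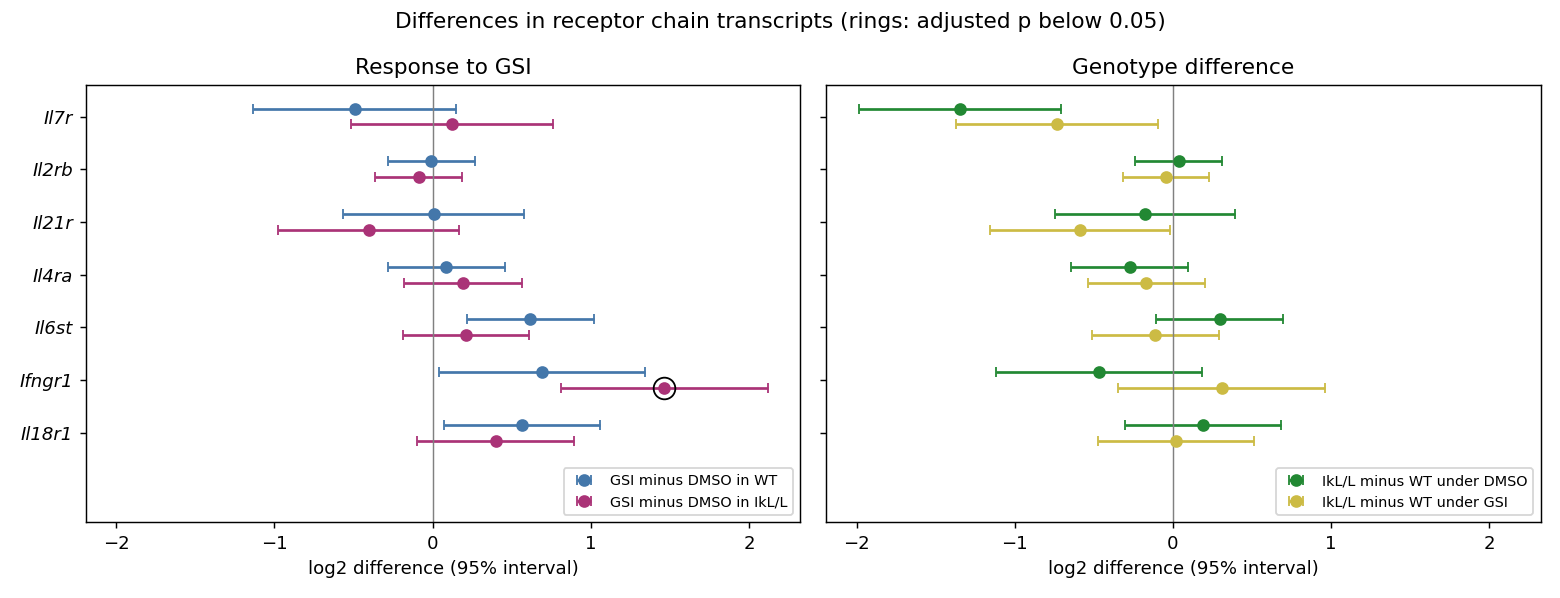
Log2 difference of each chain (x axis) with its 95% interval, for GSI minus DMSO in WT and in IkL/L (left) and for the genotype difference, IkL/L minus WT, with each treatment (right). A ring marks an adjusted p below 0.05, reached by Ifngr1 in IkL/L cells (1.47); Il7r has the most negative genotype difference (-1.35 under DMSO).

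Ifngr1 (chr10:19591949-19610229, GRCm38.p6) encodes the chain of the interferon gamma receptor that binds the cytokine. Its log2 levels were 9.58 and 9.44 in WT with DMSO, 10.65 and 9.75 in WT with GSI, 9.13 and 8.95 in IkL/L with DMSO, and 10.35 and 10.67 in IkL/L with GSI. Every GSI array lay above every DMSO array, and the lowest level was that of IkL/L DMSO (mean 9.04 ± 0.13, SD, n = 2). The average log2 difference was 1.08 ± 0.20 (SE; limma, adjusted p = 0.0061). That call held in each alternative tried, including without any single array, with an adjusted p between 0.0008 and 0.034.

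In IkL/L cells Ifngr1 rose by a log2 difference of 1.47 ± 0.28 (2.76-fold; adjusted p = 0.010), and in WT cells the difference was 0.69 ± 0.28 (adjusted p = 0.21). The difference of the responses was 0.77 (95% interval -0.15 to 1.70; adjusted p = 0.86). The call in IkL/L was lost without IkL/L DMSO replicate 1 (adjusted p = 0.063), without IkL/L DMSO replicate 2 (0.076) and without IkL/L GSI replicate 2 (0.093), over a range of 0.0014 to 0.093 in all alternatives. The WT value depended on the WT GSI arrays: it was 1.14 without replicate 2 (adjusted p = 0.038) and 0.24 without replicate 1 (adjusted p = 0.58). The genotype difference of Ifngr1 was -0.47 ± 0.28 with DMSO (adjusted p = 0.71) and 0.31 ± 0.28 with GSI (adjusted p = 0.79), and the latter turned to -0.14 without WT GSI replicate 2.

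Other cell types in the sort could also carry Ifngr1 transcripts, and in such bulk samples fewer cells of a type and less RNA per cell cannot be told apart. Of 19 myeloid and dendritic markers 8 rose with GSI on average, where 10.8% of all genes were called higher. The mean level of the 19 was 5.18 and 4.90 in WT with DMSO and 5.50 and 5.30 in WT with GSI. In IkL/L it was 5.31 and 5.35 with DMSO and 6.32 and 6.27 with GSI. The 8 that rose were Lyz1, Lyz2, S100a8, S100a9, H2-Aa, H2-Ab1, H2-Eb1 and Cd74. In IkL/L, Lyz1, a lysozyme, went from 7.22 and 7.46 with DMSO to 10.22 and 10.64 with GSI, and H2-Aa, an MHC class II chain, from 6.50 and 6.33 to 10.19 and 10.04 (limma, adjusted p = 0.00078 and 0.00064). Among the 11 that did not pass, Itgam (2.78 to 3.27) lay far below the array medians and Csf1r (5.45 to 5.86) near them on all 8 arrays. Of 8 later thymocyte markers 1 rose with GSI on average and of 10 B cell markers 2 did, and none fell. Cd4 was at 7.88 and 7.36 in IkL/L with GSI and between 5.91 and 6.57 on the other arrays. Cd8a (8.43 and 6.31) and Cd8b1 (7.62 and 5.91) were high in IkL/L with GSI on the array numbered 1 only. On the other arrays Cd8a lay between 6.02 and 6.55 and Cd8b1 between 5.81 and 6.49. Klf2, at 4.71 and 4.35 in IkL/L with GSI, was not raised there. Vpreb1 went from 6.57 and 6.69 with DMSO to 7.84 and 8.29 with GSI in WT, and from 6.58 and 6.90 to 8.64 and 9.16 in IkL/L. Cd79b was also higher on the GSI arrays of each genotype, and Igll1 on those of IkL/L only. In contrast, the B cell genes Cd79a (3.96 to 4.45), Ms4a1 (3.94 to 4.49) and Ebf1 (3.94 to 4.55) lay below the array medians throughout. Pax5 (4.94 to 5.33) lay near or below them. Of the 20 stromal markers none passed, where 23.3% of all genes did. Their mean was 7.31 and 6.55 in WT with DMSO and 7.98 and 6.39 in WT with GSI. In IkL/L it was 7.49 and 6.59 with DMSO and 7.54 and 6.96 with GSI. The GAPDH controls for the 3' end exceeded those for the 5' end, which reflects RNA length and labelling, by a log2 value of 1.71 to 2.47 on DMSO and 2.20 to 3.09 on GSI arrays. The part of these in the Ifngr1 result was not tested.

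Ifngr2, the second chain of that receptor, was named outside the rule for its role. It was at 7.77 and 7.29 in WT with DMSO, 8.54 and 7.03 in WT with GSI, 7.79 and 7.55 in IkL/L with DMSO, and 8.49 and 8.42 in IkL/L with GSI. The WT GSI arrays fell on either side of the WT DMSO arrays, and the average log2 difference of 0.52 ± 0.30 did not pass (adjusted p = 0.29). Ifng, the gene of the cytokine, was at 4.40 and 5.26 on the arrays numbered 1 of WT DMSO and WT GSI. It lay between 2.96 and 3.31 on all other arrays.

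Il6st (chr13:112464070-112506860) encodes gp130, the signal-carrying chain shared by interleukin-6, interleukin-11, LIF and oncostatin M. By the probe set with the highest mean, 1452843_at, its levels were 8.90 and 8.97 in WT with DMSO, 9.67 and 9.43 in WT with GSI, 9.33 and 9.13 in IkL/L with DMSO, and 9.42 and 9.46 in IkL/L with GSI. The 2 WT DMSO arrays were the lowest, and the 2 groups under GSI overlapped. The average response was 0.41 ± 0.12 (SE; adjusted p = 0.043), with 0.62 ± 0.17 in WT (adjusted p = 0.080) and 0.21 ± 0.17 in IkL/L (adjusted p = 0.48). The average call was lost without any of 7 of the 8 arrays in turn (adjusted p = 0.082 to 0.17), without both WT arrays numbered 1 (0.12) and with arrays centred on their medians (0.069). It held without WT GSI replicate 2 (0.034).

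The 4 probe sets of Il6st disagreed. The second, 1437303_at, was at 7.81 and 8.12 in WT with DMSO, 7.42 and 8.96 in WT with GSI, 8.46 and 9.76 in IkL/L with DMSO, and 8.95 and 8.83 in IkL/L with GSI. It covered 2.35 log2 units, but much of that lay between replicates, which were 1.54 apart in WT GSI and 1.30 apart in IkL/L DMSO. Its average GSI response was -0.001 (adjusted p = 0.999 over all 45037 non-control probe sets), and its genotype difference under DMSO was 1.14 (adjusted p = 0.75). The probe sets 1421239_at (5.48 to 6.02) and 1460295_s_at (3.88 to 4.35) were dim, with average responses of -0.10 (adjusted p = 0.63) and -0.16 (adjusted p = 0.38). With the mean over the 4 probe sets, the Il6st response was 0.04 (adjusted p = 0.88).

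**Figure D3:**
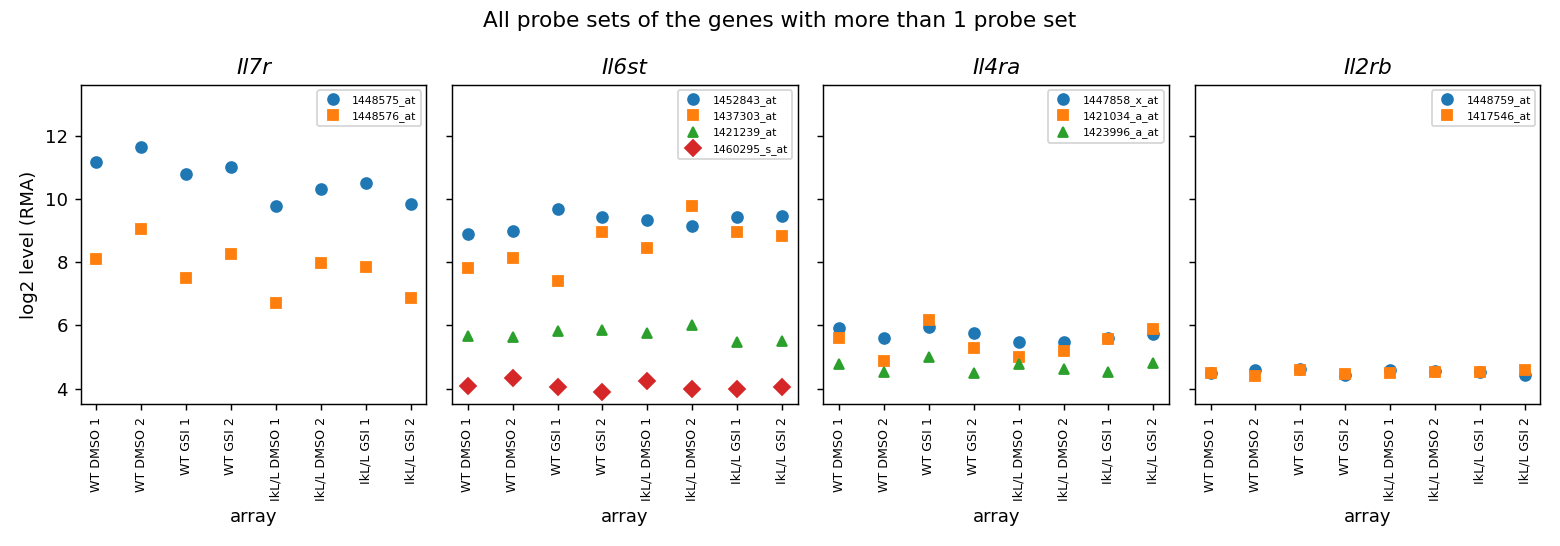
Log2 level (y axis) of every probe set of the 4 genes with more than 1 probe set, on each array (x axis). The 2 probe sets of Il7r keep the same order of group means, whereas the probe sets of Il6st do not, and both probe sets of Il2rb lie between 4.40 and 4.62 on each array.

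Il18r1 (chr1:40465552-40500854) encodes the chain of the interleukin-18 receptor that binds the cytokine. Its levels were 3.001 and 2.96 in WT with DMSO, 3.89 and 3.21 in WT with GSI, 3.03 and 3.31 in IkL/L with DMSO, and 3.73 and 3.41 in IkL/L with GSI. All arrays lay well below the array medians. The GSI arrays were above the DMSO arrays of their genotype, with overlap between WT GSI and IkL/L DMSO. The average difference of 0.48 ± 0.15 (SE) missed the threshold (adjusted p = 0.053, 0.0043 to 0.18 over the alternatives) and passed without WT GSI replicate 2 (0.65, adjusted p = 0.0043). Its partner Il18rap, named outside the rule for its role, lay between 4.90 and 5.39 on all arrays.

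Il7r (chr15:9506159-9529941) encodes the interleukin-7 receptor alpha chain. By its brighter probe set, 1448575_at, its levels were 11.15 and 11.63 in WT with DMSO, 10.80 and 11.00 in WT with GSI, 9.78 and 10.30 in IkL/L with DMSO, and 10.50 and 9.83 in IkL/L with GSI. Every IkL/L array lay below every WT array. Under DMSO the genotype difference was -1.35 ± 0.28 (SE; 2.54-fold; 95% interval -1.99 to -0.71), which did not pass over all genes (limma, unadjusted p = 0.0012, adjusted p = 0.062). The adjusted p ranged from 0.031 to 0.44 over the alternatives, passing only in the fit with the replicate number as a block (0.031), and leaving out a single DMSO array gave differences of -1.09 to -1.61. Under GSI the difference was -0.73 ± 0.28 (adjusted p = 0.38), and it was -0.40 without IkL/L GSI replicate 2.

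The second Il7r probe set, 1448576_at, had levels of 8.10 and 9.05 in WT with DMSO, 7.48 and 8.26 in WT with GSI, 6.69 and 7.96 in IkL/L with DMSO, and 7.84 and 6.88 in IkL/L with GSI. Its group means fell in the same order as those of the first, WT DMSO, WT GSI, IkL/L GSI and IkL/L DMSO, but neighbouring groups overlapped. Its genotype difference under DMSO was -1.25 (adjusted p = 0.68 over all non-control probe sets). For the first probe set, neighbours in that order did not overlap except the 2 IkL/L groups. The GSI response of Il7r was -0.49 ± 0.28 in WT (adjusted p = 0.38) and 0.12 ± 0.28 in IkL/L (adjusted p = 0.83), and the difference of the responses was 0.62 (95% interval -0.29 to 1.52; adjusted p = 0.87).

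Between the genotypes none of the 7 chains passed under DMSO, where 1.74% of all genes did, nor under GSI, where 1.46% did (limma). At an unadjusted p below 0.05 there was 1 under DMSO, Il7r, against 10.2% of all genes, and there were 2 under GSI, Il7r and Il21r, against 10.7%. Il7r and Il4ra lay lower in IkL/L than in WT without overlap under both treatments, as did 6.19% of all genes, though Il4ra under GSI was separated only by 5.743 against 5.742. No chain lay higher in that way, against 6.39%.

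Il21r (chr7:125603252-125634397) encodes the interleukin-21 receptor. Its levels were 8.03 and 7.77 in WT with DMSO, 8.25 and 7.57 in WT with GSI, 7.82 and 7.62 in IkL/L with DMSO, and 7.35 and 7.29 in IkL/L with GSI. The other 3 groups overlapped with each other, and IkL/L GSI lay below them. The difference of IkL/L from WT under GSI was -0.59 ± 0.25 (SE; adjusted p = 0.44), and the GSI response was 0.01 ± 0.25 in WT (adjusted p = 0.99) and -0.40 ± 0.25 in IkL/L (adjusted p = 0.33).

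Il4ra (chr7:125552271-125579474) encodes the interleukin-4 receptor alpha chain, which also serves interleukin-13. Its probe set with the highest mean, 1447858_x_at, was at 5.90 and 5.61 in WT with DMSO, 5.95 and 5.74 in WT with GSI, 5.49 on both arrays in IkL/L with DMSO, and 5.61 and 5.74 in IkL/L with GSI. Neighbouring groups overlapped apart from IkL/L DMSO, the lowest. No comparison passed: the average GSI response was 0.14 ± 0.11 (SE; adjusted p = 0.47) and the genotype difference under DMSO -0.27 ± 0.16 (adjusted p = 0.70). A second probe set, 1421034_a_at, spanned 4.89 to 6.18, with 6.18 and 5.29 in WT GSI, and had an average response of 0.56 (adjusted p = 0.19). The third, 1423996_a_at, stayed between 4.49 and 5.01.

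Il2rb (chr15:78479256-78511621) encodes the beta chain of the receptors for interleukins 2 and 15, a chain known from natural killer and memory T cells. Its probe sets lay between 4.43 and 4.62 (1448759_at) and between 4.40 and 4.59 (1417546_at) on the 8 arrays, below the array medians. All groups overlapped with their neighbours. The average GSI response was -0.05 (95% interval -0.24 to 0.14) and turned positive with the mean of both probe sets, and the genotype difference under DMSO was 0.04 (-0.24 to 0.31). A change in a transcript this dim may not be detectable on these arrays.

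For each chain, the genes most like it over the 8 arrays were sought among 2027 genes with a mean log2 level of at least 7 and an SD of at least 0.5. These correlations describe the same 8 arrays that carry the treatment and the genotype. They are the highest of 2027 for each chain, and such a choice over 8 arrays gives high values even for unrelated genes. Whether any exceeded what that choice alone would give was not tested. Ifngr1 was closest to Ilvbl (Pearson r = 0.99) and Unc93b1 (0.98), an adaptor of endosomal Toll-like receptors. Unc93b1 rose with GSI by 1.43 on average (adjusted p = 0.0014), from 8.20 and 7.87 to 9.29 and 8.62 in WT and from 7.48 and 7.52 to 9.23 and 9.65 in IkL/L. Il7r was closest to Slc5a3 (0.92), an inositol transporter gene, and Xist (0.89), the RNA of X inactivation. Xist was at 12.57 and 13.02 in WT with DMSO, 12.73 and 12.92 in WT with GSI, 11.58 and 11.40 in IkL/L with DMSO, and 12.05 and 11.65 in IkL/L with GSI, so it was on every array and lower in IkL/L.

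The remaining pairs were Lxn (0.89) and Ddah2 (0.89) for Il6st, Emp1 (0.87) and Adgre5 (0.86) for Il18r1, and Dok2 (0.94) and Rrp12 (0.93) for Il21r. Dedd2 (0.95) and Txnip (0.95), a glucose-uptake inhibitor gene, were closest to Il4ra. Ifit2 (0.83) and Egr1 (0.78) were closest to Il2rb, whose own range was only 0.19.

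Genes that act with these chains were taken from lists. The medians of these lists stand against -0.002 over all genes, and the counts against 10.8% of all genes higher and 12.5% lower with GSI on average. For IkL/L against WT under DMSO they stand against 0.709% higher and 1.03% lower. Of 32 other cytokine receptor chains, 9 rose and 2 fell with GSI on average, with a median of 0.16. Those that rose included Ifnar1 (1.32 ± 0.15, SE), a chain of the type I interferon receptor, Il10rb (1.27 ± 0.17) and Il17ra (1.21 ± 0.17), and Il2ra fell. Without either IkL/L DMSO array 5 rose. Under DMSO 2 of the 32 were lower in IkL/L than WT cells and none was higher. They were Il10ra, the interleukin-10 receptor chain (6.69 and 6.70 in WT, 4.84 and 4.64 in IkL/L; -1.96 ± 0.18, adjusted p = 0.0017), and Tgfbr1 (10.80 and 11.41 in WT, 9.72 and 9.87 in IkL/L; -1.31 ± 0.24, adjusted p = 0.037). Fewer of the 32 were called lower without IkL/L DMSO replicate 1 or 2, IkL/L GSI replicate 1 or 2, or WT DMSO replicate 2.

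**Figure D4:**
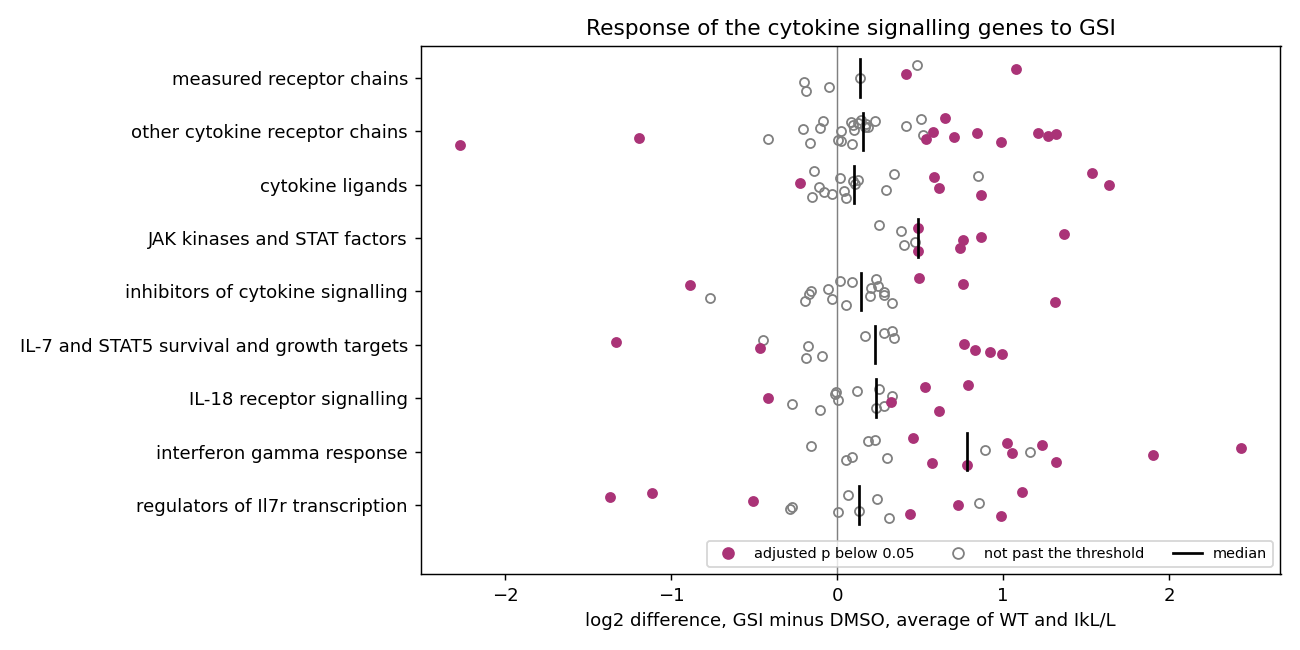
Log2 difference of GSI minus DMSO averaged over both genotypes (x axis) for the 7 measured receptor chains and for each list of cytokine signalling genes (rows). Filled points have an adjusted p below 0.05 and bars mark medians, of which that of the interferon gamma response (0.78) is the highest shown.

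Downstream of the chains, 6 of 10 JAK and STAT genes rose with GSI on average and none fell (median 0.49). Examples were Stat4 (1.37 ± 0.19, SE), which carries interleukin-12 signals, Stat3 (0.87 ± 0.14), the main STAT of gp130, Stat2 (0.76 ± 0.17) and the kinase gene Jak2 (0.74 ± 0.11). The count was 3 without IkL/L DMSO replicate 1, IkL/L GSI replicate 1 or WT DMSO replicate 1. Jak3, the kinase of the common gamma chain and outside the naming rule, was at 0.40 ± 0.17 (adjusted p = 0.13). Under DMSO none of the 10 differed between the genotypes at an adjusted p below 0.05; Stat4 was at -1.37 ± 0.28 (adjusted p = 0.056) and Stat5a at -0.34 ± 0.32 (adjusted p = 0.87).

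Of 17 genes of the interferon gamma response, 9 rose with GSI on average and none fell (median 0.78). They included the GTPase genes Iigp1 (2.44 ± 0.65, SE) and Gbp2 (1.90 ± 0.28), the factor gene Irf9 (1.32 ± 0.39) and the peptide transporter gene Tap1 (1.23 ± 0.16). Many of them also answer to type I interferon. The count was 3 without IkL/L DMSO replicate 2 and 4 without IkL/L GSI replicate 1 or WT DMSO replicate 2. The mean level of the list was 9.13 and 8.60 in WT with DMSO, 9.85 and 9.15 in WT with GSI, 8.83 and 8.31 in IkL/L with DMSO, and 9.74 and 9.34 in IkL/L with GSI, higher on the array numbered 1 in each group. Under DMSO none passed between the genotypes; Irf9 was at -0.88 ± 0.55 and Irf8 at -0.84 ± 0.18 (adjusted p = 0.72 and 0.065).

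Of 20 inhibitors of cytokine signalling, 3 rose and 1 fell with GSI on average (median 0.14). Socs3, the feedback inhibitor that binds gp130, rose by 1.31 ± 0.28 (SE), from 9.36 and 10.36 to 10.12 and 11.24 in WT and from 8.58 and 8.69 to 10.38 and 10.51 in IkL/L. Pias3 (0.76 ± 0.19) and Sigirr (0.50 ± 0.14) rose and Pias2 (-0.88 ± 0.18) fell. Without IkL/L GSI replicate 2 none rose and without either IkL/L DMSO array 1 did, while 2 fell without WT GSI replicate 1. Under DMSO none passed between the genotypes, with Socs3 at -1.22 ± 0.40 (adjusted p = 0.27) and Socs2 at 0.56 ± 0.36 (adjusted p = 0.75).

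Of 14 survival and growth genes downstream of interleukin-7 and STAT5, 4 rose and 2 fell with GSI on average (median 0.23). The survival gene Mcl1 (0.99 ± 0.08, SE), the death gene Bcl2l11 (0.92 ± 0.22) and the kinase gene Pim1 (0.83 ± 0.14) rose, while the cyclin gene Ccnd3 (-1.34 ± 0.19) fell. Without IkL/L GSI replicate 2, 2 rose and 1 fell, and 1 fell also without either IkL/L DMSO array or WT DMSO replicate 1. Under DMSO none passed between the genotypes; Ccnd3 was at 1.22 ± 0.26 and Ccnd2 at -1.07 ± 0.25 (adjusted p = 0.073 and 0.092).

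Of 15 factors known to act on Il7r transcription, 4 rose and 3 fell with GSI on average (median 0.13). The glucocorticoid receptor gene Nr3c1 (1.11 ± 0.15, SE) and Foxo3 (0.98 ± 0.15) rose, and Ikzf3 (-1.37 ± 0.23), an Ikaros relative, and Lef1 (-1.11 ± 0.13) fell. Foxo1, which drives Il7r in T cells and lies outside the naming rule, was at 0.32 ± 0.12 (adjusted p = 0.11). Under DMSO Ikzf1 was the only one of the 15 that passed between the genotypes.

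Of 20 cytokine genes, 5 rose and 1 fell with GSI on average (median 0.10). Tslp, whose cytokine also acts through the interleukin-7 receptor alpha chain, was at 4.56 and 4.39 in WT with DMSO, 4.45 and 5.42 in WT with GSI, 4.52 and 5.06 in IkL/L with DMSO, and 7.25 and 7.97 in IkL/L with GSI. Its average difference was 1.64 ± 0.25 (SE; adjusted p = 0.0025), and only the IkL/L GSI arrays stood clear of the others. Clcf1 (1.54 ± 0.24), Il6 (0.87 ± 0.25) and Il18 (0.62 ± 0.15) also rose. Leaving out an array gave 2 or 3 that rose for 5 of the 8 arrays: WT DMSO replicates 1 and 2, IkL/L DMSO replicates 1 and 2, and IkL/L GSI replicate 2. None fell without any single array.

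Il6, the cytokine that signals through gp130, was at 4.04 and 3.71 in WT with DMSO, 4.73 and 3.62 in WT with GSI, 6.40 and 6.39 in IkL/L with DMSO, and 7.52 and 8.15 in IkL/L with GSI. Every IkL/L array lay above every WT array, and under DMSO the genotype difference was 2.53 ± 0.35 (SE; 5.76-fold; adjusted p = 0.013). No cytokine gene was called higher there without any single DMSO array or with every probe set as a feature. Clcf1 was lower in IkL/L cells under DMSO (-1.79 ± 0.34; adjusted p = 0.042), and no cytokine gene was called lower there without any single DMSO or IkL/L GSI array, without a trend in eBayes, or in the fit over all probe sets. Il7, named outside the rule as the ligand of Il7r, lay between 3.20 and 3.99 on all arrays.

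Of 15 genes of interleukin-18 receptor signalling, 4 rose and 1 fell with GSI on average (median 0.23). Nfkbia, the NF-kappaB inhibitor gene, rose by 0.79 ± 0.09 (SE), Rela by 0.53 ± 0.15 and Il18 as given, and Irak1bp1 fell (-0.42 ± 0.12). Between 1 and 2 rose without any single array other than WT GSI replicate 2, and none fell without any single array other than WT GSI replicate 1. Under DMSO none passed between the genotypes, with Irak1bp1 at 0.45 ± 0.17 and Tirap at 0.44 ± 0.25 (adjusted p = 0.37 and 0.67).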

How the data were processed

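RNA of sorted cells was labelled in 2 cycles, per the labels' protocols, and hybridised to Affymetrix mouse arrays. The authors deposited log2 values from RMA, per the submitters' processing notes, which were kept as they are. The RMA version is not given in the sources used here. Sample titles gave the groups.

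The gene-level fit left out 64 control probe sets, 932 with several gene symbols and 9160 for which the annotation lists no symbol, from 45101. For 9010 genes with several probe sets, the one with the highest mean was used, which gave 18193 genes. The fit used limma 3.58.1 under R 4.3.3 (group means by lmFit, eBayes with a trend, all 8 arrays, 4 residual and 4.11 prior degrees of freedom), two-sided, with Benjamini-Hochberg adjustment over all genes and a threshold of 0.05. A second fit took all 45037 non-control probe sets as features. The number of arrays limits the precision. Sequences came from RefSeq tables (6 of the 7 measured genes matched), and tables and plots were made with pandas 2.3.3 and matplotlib 3.10.9 in Python 3.11.15.

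Members and lists were chosen with earlier results of these data known. The rule for names was: all members, Il2ra and Ikzf1; from each list up to 4 genes called in the average GSI response and up to 4 in the genotype difference under DMSO, by size, or the 2 largest where none passed; and the 2 genes most like each member. Alternatives were the replicate number as a block, the mean over probe sets, every probe set as a feature, only genes above the median level, centring each array on its median, no trend in eBayes, a fit restricted to the arrays compared, leaving out each array, and leaving out both WT arrays numbered 1. A group left with 1 array was assumed to vary like the others. In simulated arrays where 100 genes moved by 1 log2 unit and 100 by 2 units, limma recovered 72 and 95 for the average GSI response, 17 and 66 for the difference of the GSI responses, 56 and 89 for the genotype difference on DMSO arrays, and 41 and 84 for GSI in WT. False calls were 3, 2, 9 and 2 in that order. Only those genes moved, and noise was drawn independently for each array. The real arrays differ in both respects, so the shares recovered may not hold for them.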

Additional observations from a re-analysis of the deposited data

How the results depend on the processing

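The number of chains called for GSI on average was 2, and 1 with arrays centred on medians, every probe set as a feature, the mean over probe sets, or without both WT arrays numbered 1. Leaving out an array gave 1 to 3. In WT it was 0, and 1 without a trend or with only genes at or above the median level; without single arrays it was 0 to 2. In IkL/L it was 1, and 0 to 1 without single arrays. With the replicate block it was 1 (Il7r) under DMSO between the genotypes, against 0, and the average GSI call of Il18r1 passed as well. The block moved no call of Ifngr1. Whether the numbers pair the samples is not given in the labels; deviations of same-numbered arrays correlated with r of 0.56 to 0.71 in the 3 pairs among WT DMSO, WT GSI and IkL/L DMSO, and of -0.11 to 0.025 in the 3 pairs with IkL/L GSI. As not every pair correlated, the main fit did not pair the samples by number. The means of the stromal markers and of the interferon gamma response genes were nevertheless higher on the array numbered 1 in each group, IkL/L GSI included. Whether same-numbered arrays share a source was not tested.

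Of all genes, 4235 were called for GSI on average, 6623 as probe sets, and 2616 to 4642 without single arrays. In WT 1177 were called, 711 as probe sets, 1 with only the WT arrays, 1973 with the replicate block, 543 without both WT arrays numbered 1, and 9 to 1341 without single arrays. In IkL/L 3055 were called, 947 to 3860 without single arrays. Between the genotypes under DMSO it was 316, 186 as probe sets, 542 with the replicate block and 76 to 425 without single arrays. Under GSI it was 266, 154 with only genes at or above the median level, 101 with only the arrays compared, 470 with the replicate block and 100 to 238 without single arrays. For the difference of the responses it was 8, 3 with centred arrays, 2 without a trend or with only genes at or above the median level, 0 as probe sets or without both WT arrays numbered 1, 24 with the replicate block, and 0 to 5 without single arrays.

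Of 640 alternative values of the 42 log2 differences, 590 kept direction and side of the threshold, and 29 turned sign, each from a value that had not passed. With the mean over probe sets Il2rb was 0.034 for GSI in WT and 0.0081 on average, and Il6st was -0.12 for GSI in IkL/L and 0.079 between genotypes under GSI. Centring gave -0.015 for Il21r and GSI in WT. Without both WT arrays numbered 1 that value was -0.21, the difference of responses 0.15 for Il18r1 and 0.046 for Il2rb, and the genotype difference of Il2rb -0.0021 under DMSO and 0.044 under GSI and of Il6st 0.0063 under GSI. Without single arrays, the difference of responses ranged from -0.51 to 0.17 for Il18r1, from -0.17 to 0.0080 for Il2rb and from -0.042 to 0.25 for Il4ra. GSI in WT ranged from -0.33 to 0.34 for Il21r, from -0.097 to 0.083 for Il2rb and from -0.058 to 0.23 for Il4ra, and GSI in IkL/L from -0.21 to 0.46 for Il7r. The genotype difference under GSI ranged from -0.14 to 0.76 for Ifngr1, from -0.32 to 0.36 for Il18r1, from -0.14 to 0.044 for Il2rb and from -0.23 to 0.0063 for Il6st, and under DMSO from -0.0021 to 0.074 for Il2rb. The cause of these moves was not tested. No value could be had for Il2rb, Il4ra or Il18r1 with only genes at or above the median level where their level was below it. The fit with only the arrays compared cannot give the average or the difference of responses.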
